A study of Sus scrofa with 6 samples.

Results

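The genes described here were the NF-κB subunits RELA, RELB, NFKB1 and NFKB2, the NF-κB inhibitors NFKBIA and TNFAIP3, the anti-apoptotic target BIRC3 and the Toll-like receptors TLR2, TLR4 and TLR5. They were chosen by name, with earlier results of these data known, as were the gene lists used below. Counts set against all tested genes are thus descriptions and no independent support. The names were looked up among 31908 pig gene IDs, and 9 of the 10 had an ID under their own name. BIRC3 had none, and its place was taken by 1 ID that carries the name BIRC2 in the deposited table and BIRC3 in the symbol table used here, written BIRC2/BIRC3 below. RNA from IPEC-J2 cells, a pig small-intestinal epithelial line, was sequenced in 6 libraries. The CON group was 3 libraries from cells given PBS, and the CDCA group was 3 libraries from cells given 50 μM chenodeoxycholic acid (CDCA), a primary bile acid, both for 24 h. All 6 came from a single cell line grown alone in serum-containing medium, without immune cells or microbes, and the study speaks of biological replicates while the labels do not say whether they were separate cultures, so the p-values below measure the spread between these libraries, part of which may be technical.

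In resting cells NF-κB dimers are held in the cytoplasm by IκB proteins such as IκBα, the product of NFKBIA. Toll-like receptors bind microbial products and, through adaptors and kinases, lead to the destruction of IκBα and the entry of RELA-containing dimers into the nucleus, while a slower branch processes the NFKB2 precursor and frees RELB-containing dimers. Several pathway members, among them NFKBIA, TNFAIP3, NFKB2, RELB and BIRC3, are themselves well-known NF-κB targets, and intestinal epithelium is known for keeping its response to luminal bacteria restrained.

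Values were deposited as TPM, a measure of abundance scaled for transcript length and for the total of the library, and were added up over the transcripts listed for each gene ID. Read counts were not in the table, and the number of reads behind each value is therefore unknown. The listed TPM summed to between 351770 and 366073 per library rather than 1000000, so a value covers listed transcripts only and a low value cannot be read as absence. MYD88, the adaptor of most Toll-like receptors, was listed at 0.1 to 0.21 TPM and the epithelial cadherin CDH1 at a mean of 0.397 TPM in CON and 0.533 TPM in CDCA, both picked after their values were seen. The epithelial markers EPCAM, KRT8 and KRT18 were present, and 5 listed epithelial markers summed to 410 to 422 TPM in CON and 418 to 459 TPM in CDCA, while KRT19 had no row and VIL1 was near 0. Of the 3 tested epithelial markers EPCAM (0.39 on the log2 scale, limma FDR 0.0015) and KRT18 (0.19, FDR 0.013) rose and KRT8 did not pass (-0.12, FDR 0.18). Of 7 leukocyte markers, which summed to 5.4 to 8.17 TPM in CON and 11.5 to 13.6 TPM in CDCA, PTPRC did not exceed 0.01 TPM, whereas CD68, which encodes a lysosomal protein of macrophages and other cells, was at 0, 0 and 0.26 TPM in CON versus 5.33, 4.75 and 4.44 TPM in CDCA (log2 fold change 2.43, limma FDR 2.8e-05). CD68 reached a mean of 1 TPM over the 6 libraries, needed for a test, only through CDCA. AIF1 made up most of the CON sum, at a mean of 5.89 TPM in CON and 6.89 TPM in CDCA (0.19 on the log2 scale, limma FDR 0.35). CD3E was at means of 0.66 and 0.447 TPM, and CD163 and CSF1R were at most at 0.14 TPM in any library. Fibroblast markers summed to at most 1.78 TPM and endothelial markers to at most 2.75 TPM in any library, and PECAM1, the only tested marker of these lists, fell from a mean of 1.92 to 1.22 TPM (-0.39, limma FDR 0.025). The part of these marker changes in the results below was not tested.

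Of the 10 genes, 7 reached a mean of 1 TPM over the 6 libraries and were tested among 8708 genes, and all 3 Toll-like receptors lay under it. In the text, a gene rose or fell where its Benjamini-Hochberg adjusted p (FDR, limma) was under 0.05, and it was called where the log2 fold change on the log2(TPM + 1) scale was also over 1 in size. Numbers that open a parenthesis without another name are log2 fold changes on that scale. Of these 7 genes 5 rose, RELB, NFKB2, NFKBIA, TNFAIP3 and BIRC2/BIRC3. The 2 others, RELA and NFKB1, did not pass, so 0 of 7 fell by limma, and 1, RELA, was lower at an unadjusted p under 0.05 (0.048). Over all tested genes 29.3% rose and 23.9% fell. RELB and BIRC2/BIRC3 were called higher, 2 of 7, against 3.51% of all tested genes called higher and 3.90% called lower. In 5 of 7 every CDCA library lay above every CON library, and in 0 of 7 below, against 33.7% and 27.8% of all tested genes. The median log2 fold change was 0.71 over the 7 genes and 0.05 over all tested genes. Without the ID of uncertain name, 4 of 6 rose and the median was 0.65. The mtDNA-encoded mRNAs fell, by log2 fold changes from -1.29 (ND2) to -2.84 (COX1, mean 9110 TPM in CON and 1280 TPM in CDCA). In a unit scaled to the library total, such a fall can lift the values of other genes. When the mtDNA-encoded genes were left out of the totals, the median of all tested genes moved by -0.13. The genes that passed the test then split into 1750 higher and 2781 lower, against 2550 higher and 2085 lower as reported. The same 5 genes rose under that scaling.

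**Figure D1:**
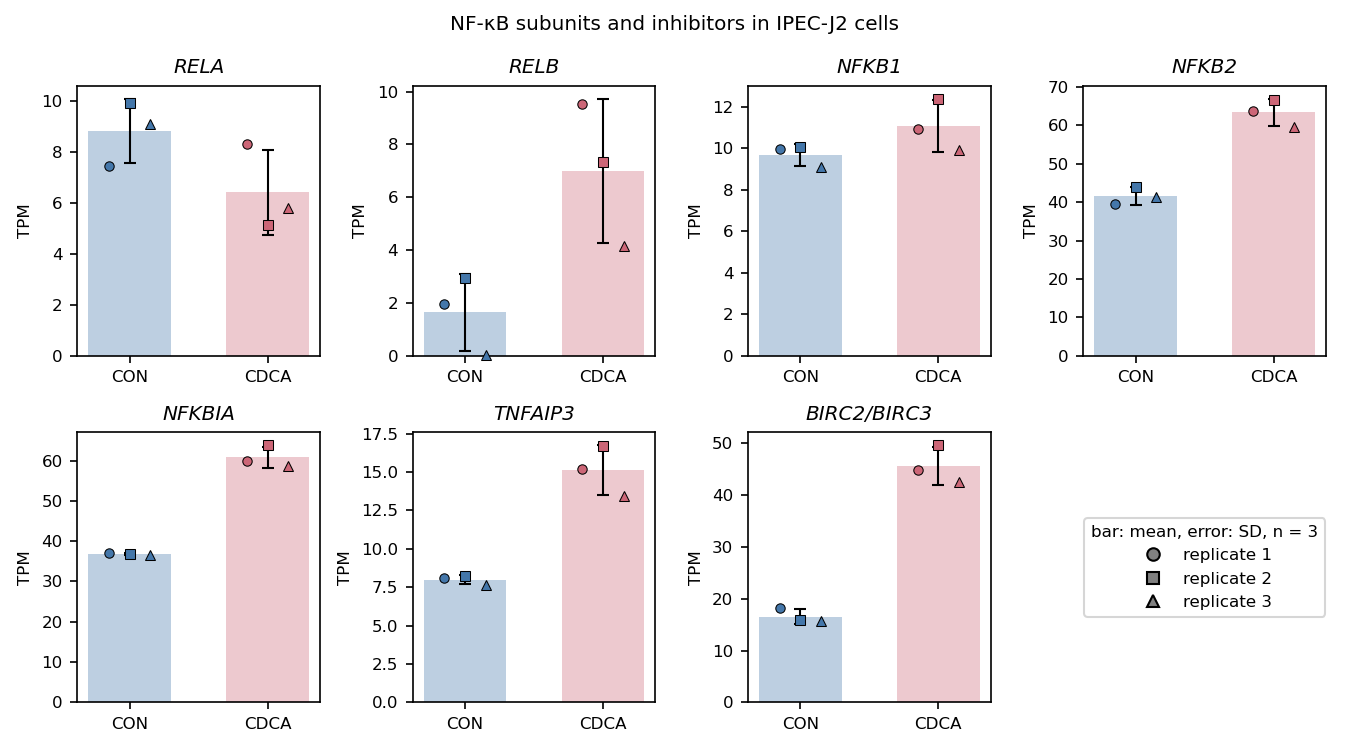
TPM of the 7 tested genes in each library (points, CON and CDCA, 3 libraries each), with the group mean as a bar and the SD as an error bar, on linear axes that start at 0. The CDCA points lie above all CON points for RELB, NFKB2, NFKBIA, TNFAIP3 and BIRC2/BIRC3, and the groups overlap for RELA and NFKB1.

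RELA (ENSSSCG00000012981) encodes p65, the subunit that carries most of the transactivating activity of the canonical pathway. It was at 7.45, 9.93 and 9.11 TPM in CON versus 8.32, 5.15 and 5.79 TPM in CDCA. The groups overlapped, since CDCA replicate 1 was higher than CON replicate 1, and the other CDCA libraries were the lowest of the 6. The means were 8.83 ± 1.3 TPM and 6.42 ± 1.7 TPM (SD, n = 3 each), with a log2 fold change of -0.42 (95% interval -0.84 to -0.01, FDR 0.082). RELA did not pass the test as reported. It did without CDCA replicate 1 (-0.60, FDR 0.014) and with the mtDNA-encoded genes out of the totals (-0.56, FDR 0.038).

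NFKB1 (ENSSSCG00000030957) encodes the p105 precursor, from which the RELA partner p50 is made. Its level was 9.94, 10.04 and 9.07 TPM in CON and 10.92, 12.37 and 9.91 TPM in CDCA. The lowest CDCA library lay within the CON range, so the groups overlapped. The log2 fold change was 0.17 (SE 0.09, 95% interval -0.04 to 0.38, FDR 0.15) and the interval included 0. It was 0.03 (FDR 0.77) with the mtDNA-encoded genes out of the totals.

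NFKB2 (ENSSSCG00000010580) encodes p100, the precursor of p52 that holds RELB in the cytoplasm until it is processed. It was at 39.42, 43.94 and 41.44 TPM in CON versus 63.62, 66.67 and 59.61 TPM in CDCA. All CDCA libraries lay well above all CON libraries. The mean rose from 41.6 ± 2.3 to 63.3 ± 3.5 TPM, a ratio of 1.52 (log2 fold change 0.59, SE 0.06, FDR 0.00028), and 13.0% of tested genes had a log2 fold change at least as high. NFKB2 had 2 listed transcripts. The larger went from 36.4 to 56.0 TPM and rose when each listed transcript was tested by itself (FDR 0.00025), while the smaller went from 5.25 to 7.29 TPM and did not pass (FDR 0.11). In bulk RNA such as this, fewer or more cells that express a gene and less or more RNA per cell cannot be told apart.

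RELB (ENSSSCG00000038879) encodes the partner of p52 in the slower branch. Its level was 1.95, 2.93 and 0.05 TPM in CON and 9.55, 7.33 and 4.14 TPM in CDCA. The groups did not overlap, but each was wide, with CON replicate 3 near 0 and CDCA replicate 1 far above CDCA replicate 3. The means were 1.64 ± 1.5 and 7.01 ± 2.7 TPM (log2 fold change 1.74, SE 0.51, 95% interval 0.51 to 2.96, FDR 0.027). Only 0.884% of tested genes had a log2 fold change at least as high, but the SE was the largest of the 7. RELB no longer passed without CDCA replicate 1 (1.51, FDR 0.081) or CDCA replicate 2 (1.68, FDR 0.072), with a pseudocount of 0.1 TPM (2.78, FDR 0.069), with no filter on low values (1.74, FDR 0.072) or with the listed TPM rescaled to 1000000 (2.28, FDR 0.051). Without CON replicate 3, the library near 0, it was 1.17 with an FDR of 0.029. A value under 10% of both other libraries of its group, where those reached 1 TPM, was seen for 11 tested genes in CON replicate 3 and for 13 to 22 in the other 5 libraries. The second of its 2 listed transcripts was at 0 in all 6 libraries.

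REL, the remaining subunit gene and not among the 10, was at 2.41, 2.61 and 2.24 TPM in CON versus 4.64, 5.33 and 4.52 TPM in CDCA. It rose by 0.77 on the log2 scale (SE 0.09, FDR 0.00065), and by 0.43 (FDR 0.013) when only its highest listed transcript was used. Of the 5 NF-κB subunit genes, 3 rose, RELB, REL and NFKB2, and NFKB1 and RELA did not pass the test.

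NFKBIA (ENSSSCG00000001952) encodes IκBα, the inhibitor that binds RELA dimers and is resynthesised after each round of activation. It was at 37.14, 36.84 and 36.62 TPM in CON versus 59.99, 63.76 and 58.56 TPM in CDCA. The CON libraries were nearly identical, and the CDCA libraries were all higher. The mean rose from 36.9 ± 0.26 to 60.8 ± 2.7 TPM, a ratio of 1.65 (log2 fold change 0.71, SE 0.04, FDR 4.2e-05). A log2 fold change as high was found for 9.24% of tested genes.

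TNFAIP3 (ENSSSCG00000004154) encodes A20, a ubiquitin-editing enzyme that shuts off signalling upstream of the IκB kinases. Its level was 8.07, 8.26 and 7.65 TPM in CON and 15.19, 16.69 and 13.45 TPM in CDCA. The lowest CDCA library was well above the highest CON library. The mean rose from 7.99 ± 0.31 to 15.1 ± 1.6 TPM, a ratio of 1.89 (log2 fold change 0.84, SE 0.08, FDR 0.00029), and 6.25% of tested genes had a log2 fold change at least as high. NFKBIA, TNFAIP3 and NFKB1 each had 1 listed transcript, so their gene values are the values of that transcript.

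BIRC2/BIRC3 (ENSSSCG00000027529) carries the names of both BIRC2 and BIRC3, which encode the ubiquitin ligases cIAP1 and cIAP2. These ligases restrain apoptosis and control the NF-κB-inducing kinase of the slower branch. In the RefSeq annotation of Sscrofa11.1 the gene that the deposited description points to lies next to BIRC3, with 0 genes starting between them. It has only a locus number there and is not named BIRC2. The deposited name and description thus point to a gene other than BIRC3, while the symbol table gives BIRC3. Which of these genes the ID measures was not settled, and reads may be shared between such similar genes, so the value is uncertain for either name. The ID was at 18.24, 15.85 and 15.63 TPM in CON versus 44.84, 49.6 and 42.45 TPM in CDCA, with no overlap. The mean rose from 16.6 ± 1.4 to 45.6 ± 3.6 TPM, a ratio of 2.75 (log2 fold change 1.41, SE 0.08, 95% interval 1.21 to 1.6, FDR 3.1e-05). Only 1.65% of tested genes had a log2 fold change at least as high.

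The 4 listed transcripts of BIRC2/BIRC3 had different fold changes. The most abundant went from a mean of 7.47 to 28.4 TPM (log2 fold change 1.79, SE 0.11, FDR 8e-05). The third went from 1.97 to 8.52 TPM (1.69, SE 0.14, FDR 0.00028). The second, at nearly the level of the first in CON, was at 7.62, 7.2 and 6.48 TPM in CON versus 7.91, 9.75 and 8.34 TPM in CDCA, which lay above CON without overlap but did not pass the test (0.25, SE 0.1, FDR 0.088). The fourth was near 0 in all libraries. When transcripts were tested one by one, 23.1% of 12205 rose. The transcripts are not named in the deposited table and are told apart only by their level, and the difference between them was not tested.

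**Figure D2:**
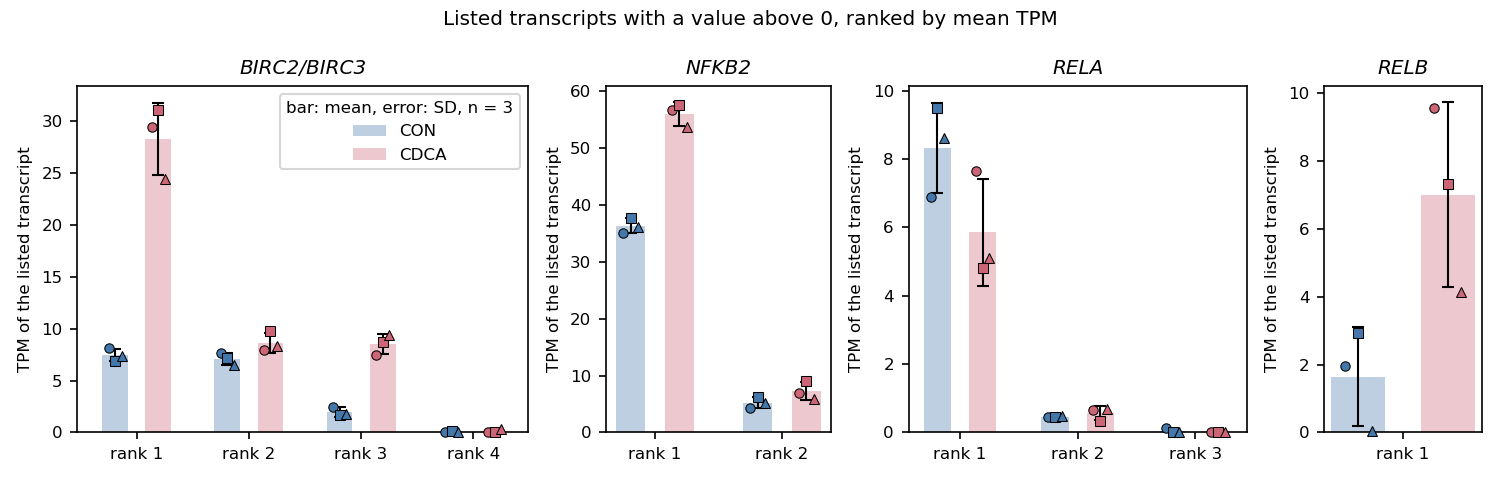
TPM of the listed transcripts of BIRC2/BIRC3, NFKB2, RELA and RELB with a value above 0, ranked by mean level (points are libraries, bars means, error bars SD, n = 3 in CON and CDCA). For BIRC2/BIRC3 the CDCA libraries lie above the CON libraries for ranks 1, 2 and 3, by a ratio of means of 3.795 for rank 1, 1.221 for rank 2 and 4.331 for rank 3.

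TPM are scaled for transcript length, so levels can be set side by side between genes, here for the listed transcripts only, since TPM not listed may belong to any gene. In CON the order by mean was NFKB2, NFKBIA, BIRC2/BIRC3, NFKB1, RELA, TNFAIP3 and RELB, followed by the Toll-like receptors near 0. NFKB1 and RELA overlapped in range, as did RELA and TNFAIP3, and so these neighbours in the order were not apart. RELB, at 0.05 TPM in its lowest CON library, also overlapped TLR2, which reached 0.06 TPM. In CDCA the order was NFKB2, NFKBIA, BIRC2/BIRC3, TNFAIP3, NFKB1, RELB and RELA. NFKB2 and NFKBIA overlapped there, and so did RELB and RELA, while TNFAIP3 had moved above both NFKB1 and RELA.

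Ratios of TPM within a library do not depend on how its total was scaled, and are given as a description with no test. NFKBIA stood at 4.99, 3.71 and 4.02 times RELA in CON and at 7.21, 12.4 and 10.1 times RELA in CDCA. TNFAIP3 stood at 1.08, 0.832 and 0.840 times RELA in CON and at 1.83, 3.24 and 2.32 times RELA in CDCA. Both inhibitors were thus higher relative to RELA in every CDCA library than in any CON library. Both already lay above CON without overlap by themselves, as did 33.7% of all tested genes. The mean of RELA was lower in CDCA, though RELA did not pass the test. The ratios restate these gene values, and the share of other gene pairs without overlap was not computed. NFKB2 stood at 3.97, 4.38 and 4.57 times NFKB1 in CON and at 5.83, 5.39 and 6.02 times NFKB1 in CDCA, again without overlap. RELB stood at 0.262, 0.295 and 0.00549 times RELA in CON and at 1.15, 1.42 and 0.715 times RELA in CDCA. NFKB1 to RELA overlapped between the groups.

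**Figure D3:**
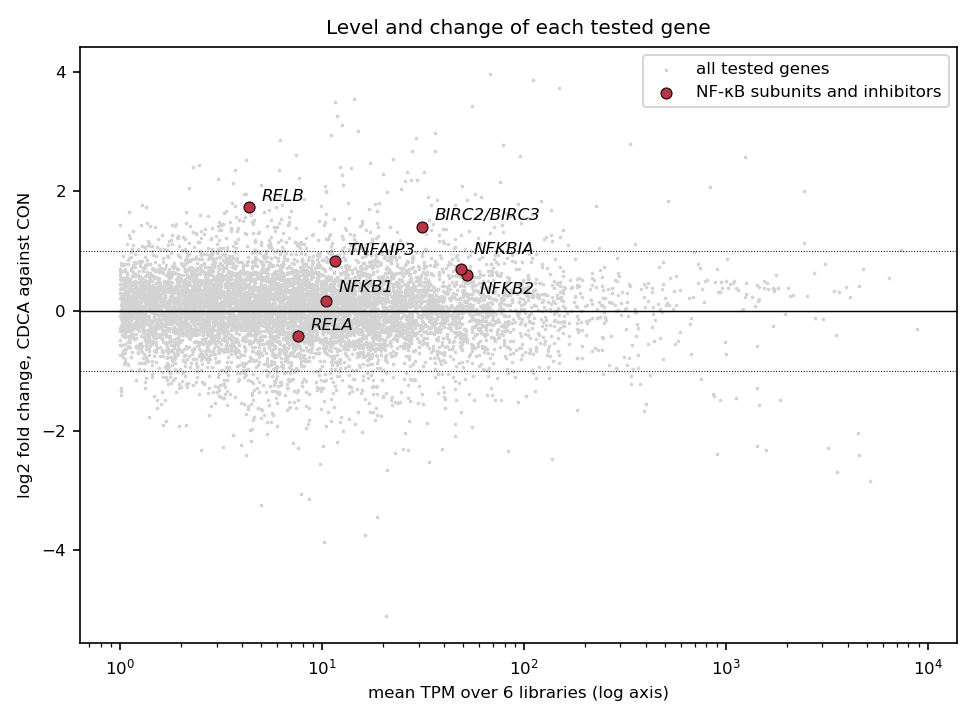
Log2 fold change of the tested genes, CDCA against CON, against mean level in TPM on a log axis, with all 8708 tested genes as grey points. RELB and BIRC2/BIRC3 lie above the line at 1, NFKB2, NFKBIA and TNFAIP3 between 0.59 and 0.84, NFKB1 at 0.17 and RELA at -0.42.

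All 3 chosen Toll-like receptors were listed at or near 0. TLR2 (ENSSSCG00000009002), the receptor of bacterial lipoproteins, was at 0.03, 0.06 and 0 TPM in CON versus 0.14, 0.07 and 0.05 TPM in CDCA over 6 listed transcripts. TLR4 (ENSSSCG00000005503), the receptor of lipopolysaccharide, was listed at 0.01 TPM in CON replicate 2 and in CDCA replicate 1 and at 0 in the other 4 libraries. TLR5 (ENSSSCG00000010885), the receptor of flagellin, was listed at 0.01 TPM in CON replicate 1 and at 0 in the other 5. Values this close to the rounding of the deposited table, 0.01 TPM, allow no comparison between the groups, and none was made.

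The list of Toll-like receptors and co-receptors held 13 genes, these 3 included, of which 12 had a row, TLR7 having none of its own, and 4 were tested. Of the 4, 2 rose and 1 fell, against 29.3% and 23.9% of all tested genes. Of the 2 that rose, TLR6 was tested only through its CDCA values, so this count depends on the filter. LY96, which encodes MD-2, the lipopolysaccharide-binding partner of TLR4, was at 27.1 ± 0.68 TPM in CON and 47.2 ± 3.6 TPM in CDCA and rose (0.78, FDR 0.00011). It was thus abundant where TLR4 itself was listed near 0. TLR6, a partner of TLR2, was at 0.86, 0.54 and 0.78 TPM in CON versus 1.43, 1.5 and 1.5 TPM in CDCA and rose (0.52, SE 0.12, FDR 0.011). With a pseudocount of 0.1 TPM its log2 fold change was 0.95. TLR6 was under 1 TPM in every CON library and reached the filter only through CDCA, so its rise does not stand apart from the filter. Without the filter its limma FDR was 0.031. TLR3, the receptor of double-stranded RNA, had the highest listed TPM of the Toll-like receptors with a row, at 11.21, 9.16 and 9.71 TPM in CON and 7.39, 6.56 and 7.3 TPM in CDCA, and fell (-0.45, SE 0.09, FDR 0.0057). TLR3 did not pass when only its highest listed transcript was used (-0.20, FDR 0.16). TLR1 and TLR10, named after their values were seen, stayed under 1 TPM in every library.

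**Figure D4:**
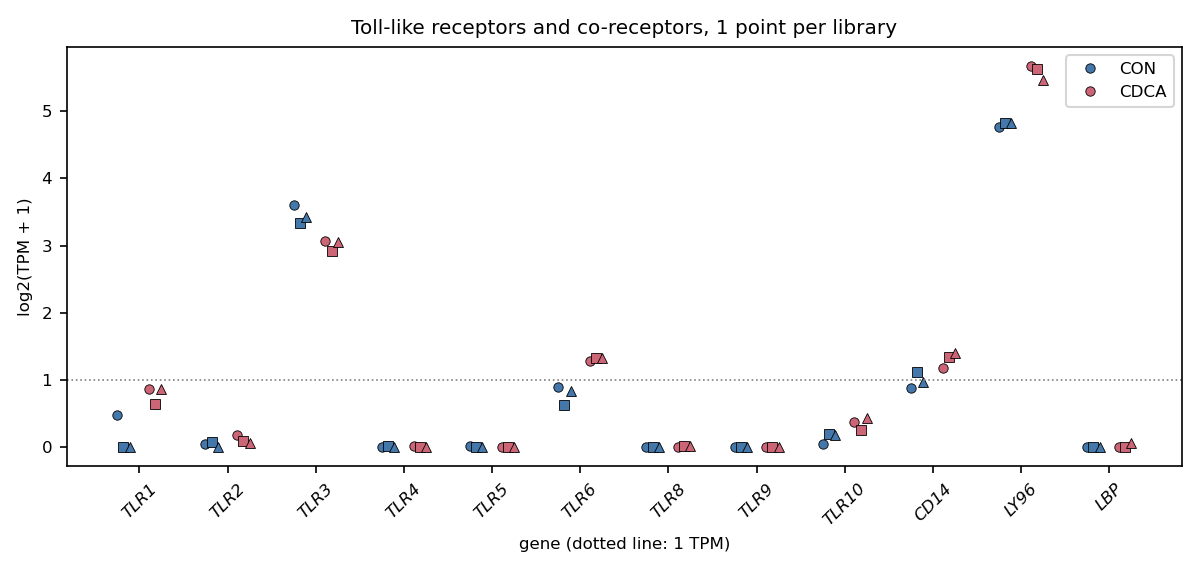
TPM of the Toll-like receptors and co-receptors in each library (points, CON and CDCA) on the log2(TPM + 1) scale, with a dotted line at 1 TPM. TLR3 and LY96 lie well above the line, TLR6 near it, and TLR2, TLR4 and TLR5 at most at 0.14 TPM.

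The wider pathway was described by 8 lists, chosen with earlier results of these data known, with 92 gene names and 91 IDs, of which 60 were tested. Of these, 32 rose and 2 fell, 6 were called higher and 0 lower, and the median log2 fold change was 0.39. Over all tested genes 29.3% rose, 23.9% fell, 3.51% were called higher and 3.90% lower, and the median was 0.05. Leaving out the 7 tested genes chosen at the start, but not REL, LY96, TLR6 and TLR3, 27 of 53 rose and 2 fell, with a median of 0.38. With the mtDNA-encoded genes out of the totals, 26 of the 60 rose and 6 fell, where over all genes tested 1750 rose and 2781 fell.

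The counts of each list stand against the 29.3% of all tested genes that rose and the 23.9% that fell. In the IκB family 2 of 5 tested genes rose and 0 fell. Beside NFKBIA this was NFKBIZ, a nuclear IκB that acts as a cofactor of NF-κB, which went from 4.98 ± 0.029 to 10.6 ± 0.59 TPM (0.96, FDR 5.5e-05). NFKBID went from 1.34 to 1.91 TPM and did not pass (0.32, FDR 0.085). Of the ubiquitin editors and feedback inhibitors 5 of 9 rose. ZC3H12A, which encodes the ribonuclease Regnase-1 that degrades inflammatory mRNAs, went from 3.45 ± 0.66 to 9.08 ± 0.39 TPM and was called higher (1.19, SE 0.11, FDR 0.00021). TAX1BP1, an adaptor that works with A20, went from 49.1 ± 3.1 to 95.1 ± 2.7 TPM (0.94, FDR 3.1e-05). These genes rose together with NFKBIA and TNFAIP3. Of the IAP proteins and linear ubiquitin complex 2 of 4 rose, BIRC2/BIRC3 and RBCK1, the latter by 0.19 with an FDR of 0.042, which was 0.06 to 0.61 in the alternatives that lost it, most of those tried. SHARPIN, a part of the same complex, was at 1.49, 1.16 and 0.12 TPM in CON versus 2.45, 3.54 and 1.56 TPM in CDCA and did not pass (0.91, SE 0.35, FDR 0.063). It passed with the replicate block (FDR 0.016) and without CON replicate 1 (1.14, FDR 0.046), and was 0.56 (FDR 0.12) without CON replicate 3. Its CON mean, 0.923 TPM, was under 1 TPM, so SHARPIN reached the filter only through CDCA.

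Of the adaptors and kinases 6 of 17 rose and 0 fell, a share not far from the 29.3% of all tested genes. Among the 6 was TRAF3, named after its values were seen. TRAF3 went from 0.793 to 1.57 TPM and reached the filter only through CDCA. IRAK2, a kinase of the Toll-like and interleukin-1 receptor complex, was at 1.56, 1.56 and 1.44 TPM in CON versus 6.34, 5.95 and 6.33 TPM in CDCA and was called higher (1.52, SE 0.08, FDR 2e-05). TBK1, an IκB kinase relative, went from 25.7 ± 2.5 to 46.4 ± 0.76 TPM (0.83, FDR 0.00013), and IRAK4 from 3.00 ± 0.43 to 4.75 ± 0.29 TPM (0.53, FDR 0.0057). Of the IκB kinase subunits, singled out after their values were seen, CHUK rose (0.38, FDR 0.0065), while IKBKB (-0.52, FDR 0.095) and IKBKG (0.33, FDR 0.06) did not pass. Of the TNF, IL-1 and lymphotoxin receptors 2 of 4 rose and 1 fell. TNFRSF1B, a TNF receptor, went from 24.9 ± 1.2 to 43.3 ± 1.0 TPM (0.78, FDR 4.2e-05) and LTBR, the lymphotoxin β receptor, from 34.8 ± 1.3 to 44.3 ± 2.9 TPM (0.34, FDR 0.0031). TNFRSF12A fell from 74.8 ± 3.9 to 63.7 ± 3.6 TPM (-0.23, FDR 0.015). With the mtDNA-encoded genes out of the totals LTBR was at 0.19 and TNFRSF12A at -0.38, and both still passed.

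Of 20 genes listed as NF-κB targets 12 were tested, and 10 of these rose and 0 fell, with a median of 0.64, against 29.3% that rose, 23.9% that fell and a median of 0.05 over all tested genes. The chemokine CCL5 went from 8.52 ± 1.4 to 102 ± 16 TPM and was called higher (3.44, FDR 8.5e-06). CXCL8, the neutrophil attractant interleukin-8, went from 8.15 ± 1.4 to 44.6 ± 2.6 TPM and was called higher (2.33, SE 0.11, FDR 1.5e-05). CXCL2 went from 8.95 ± 0.67 to 17.0 ± 2.2 TPM (0.85, FDR 0.00066). The 2 tested target genes that did not rise, outside the naming rule, were ICAM1 (-0.35, FDR 0.15) and BCL2L1 (0.19, FDR 0.18). TNF and IL1B, also named after their values were seen, were under 1 TPM in both groups and were not tested.

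**Figure D5:**
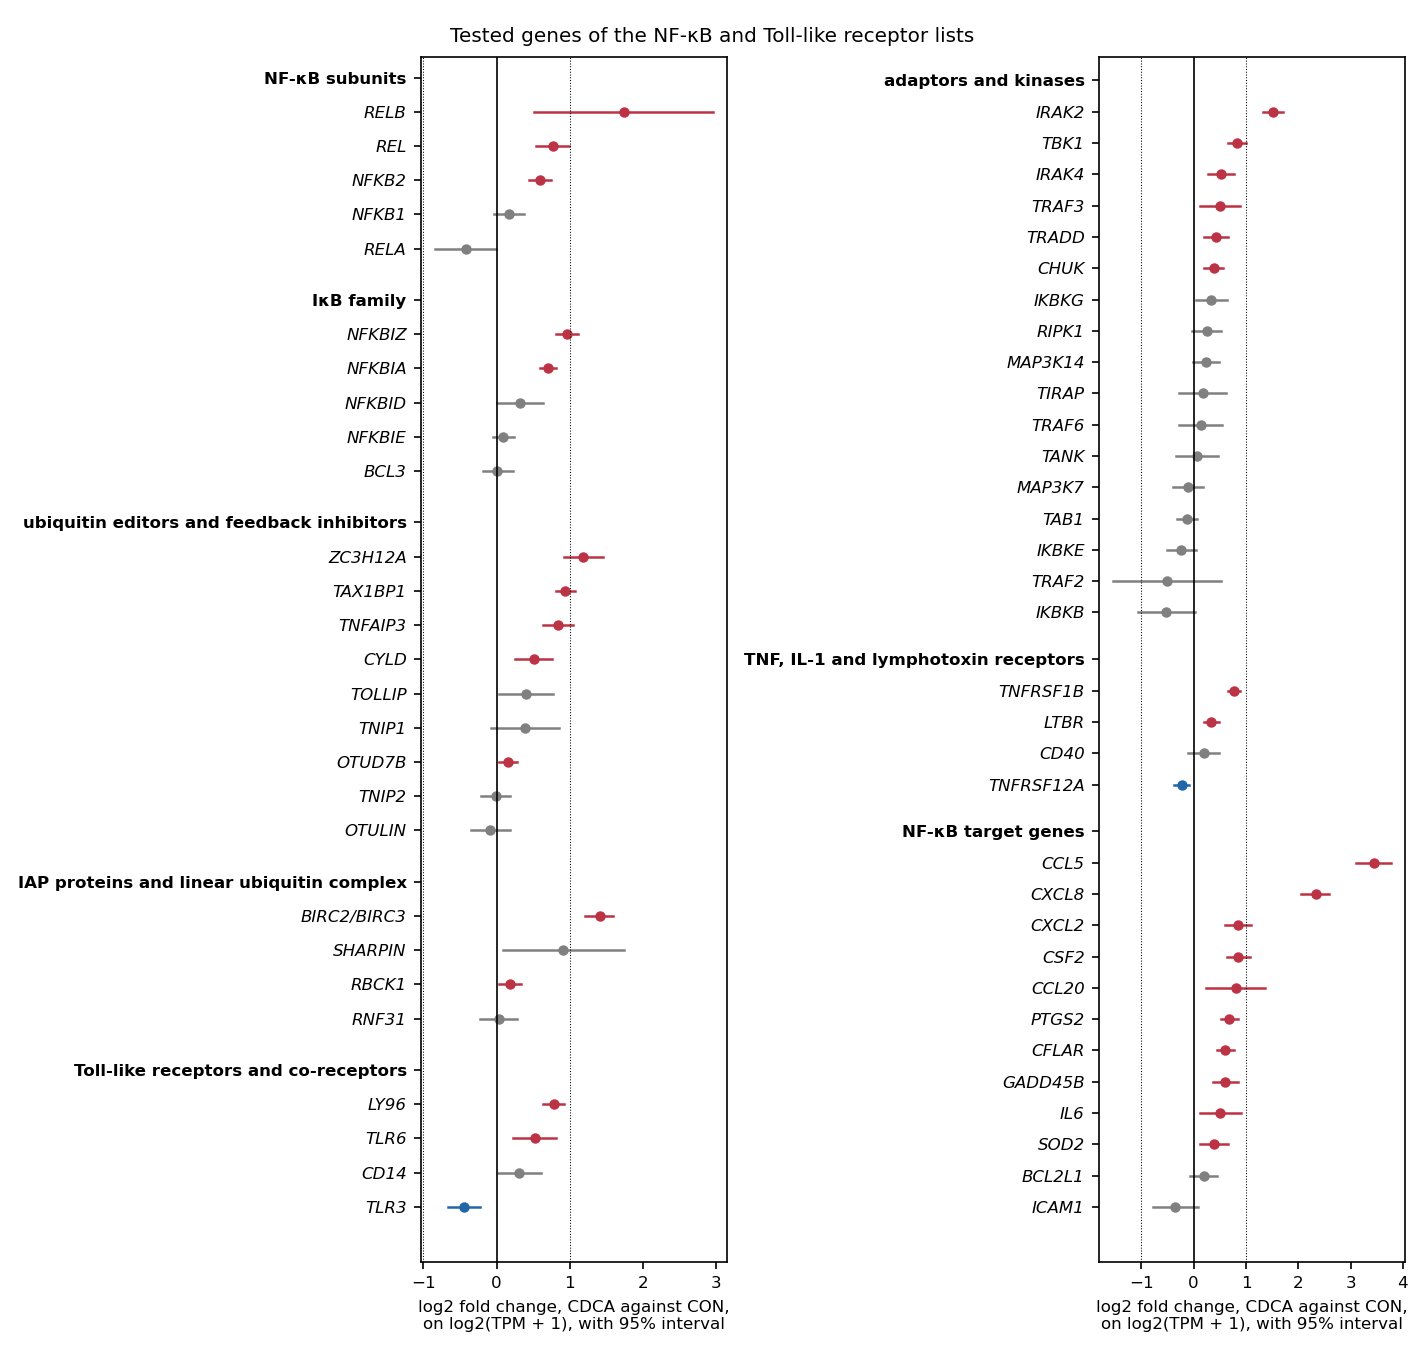
Log2 fold change with its 95% interval (bars), CDCA against CON, for all 60 tested genes of the 8 pathway lists, grouped by list (red rose, blue fell, grey did not pass). Of these, 32 rose and 2 fell, with CCL5 farthest at 3.44, and TLR3 and TNFRSF12A lie below 0.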

How the data were processed

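RNA from 6 IPEC-J2 libraries (CON and CDCA, n = 3 each, grouped by the sample labels) was sequenced by the authors on an Illumina instrument and quantified with RSEM, and TPM for 63041 transcripts were deposited without read counts, so counting error could not be given. The submitters' processing notes name Bowtie 0.12.2 and the mouse build mm10, although all IDs are pig Ensembl IDs, so no coordinates of the files or of another build are given, and RefSeq Sscrofa11.1 served only to see which genes are neighbours. The authors tested with edgeR, which needs counts. Here the TPM were summed per gene ID, and genes whose mean reached 1 TPM were compared by limma 3.58.1 (R 4.3.3, lmFit, eBayes with trend) on log2(TPM + 1), with Benjamini-Hochberg adjustment over all 8708. Calls needed an FDR under 0.05 and a log2 fold change over 1 in size. The steps were tested on simulated data. Symbols came from the deposited table and a table of Ensembl symbols, which differed for 267 IDs. The members and lists were chosen with earlier results of these data known. Named genes were all 10 members, every called list gene and the 3 largest changes of each list, and, beside the cell type markers, others are said to be picked later. The value of 1 untested leukocyte marker is not reported here. Alternatives were another pseudocount, no filter, 3 other scalings, the highest listed transcript, a replicate block and each library left out, and, added after seeing the data, each transcript by itself and RELB without its 2 extreme libraries.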

Additional observations from a re-analysis of the deposited data

How the results depend on the processing

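None of the log2 fold changes of the 7 tested members and 19 other genes named by the rule changed sign under the alternatives, which were not computed for genes named later. The gene values of NFKB2, NFKBIA, TNFAIP3 and BIRC2/BIRC3 rose under each one. Leaving out 1 library gave log2 fold changes of -0.60 to -0.30 for RELA, 1.17 to 2.12 for RELB, 0.10 to 0.24 for NFKB1, 0.56 to 0.64 for NFKB2, 0.67 to 0.73 for NFKBIA, 0.77 to 0.91 for TNFAIP3 and 1.35 to 1.48 for BIRC2/BIRC3. RELA passed the test without CDCA replicate 1 (-0.60) and with totals without the mtDNA-encoded genes (-0.56). RELB did not pass with a pseudocount of 0.1 TPM (2.78), without the filter (1.74), with the listed TPM rescaled to 1000000 (2.28), without CDCA replicate 1 or 2, or without CON replicate 3 and CDCA replicate 1 together (0.94, FDR 0.056, chosen after seeing the data). Transcript by transcript, also chosen later, the second transcripts of NFKB2 (0.40) and BIRC2/BIRC3 (0.25) did not pass. The causes were not tested.

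Of the 10 genes, 1 fell with totals without the mtDNA-encoded genes (0 to 1 over left-out libraries), and 1 was called higher with the other pseudocount, without the filter and after rescaling (1 to 2 over left-out libraries). Over all genes 509 were called higher with the other pseudocount and 523 after rescaling, against 306, while 505 and 481 were called lower, against 340. With totals without the mtDNA-encoded genes the calls were 221 higher and 462 lower, so the side with more calls differed between these settings. Called higher among the subunits were 0 with the other pseudocount, without the filter and after rescaling (0 to 1 over left-out libraries), and in the IκB family 1 with the other pseudocount and after rescaling (0 to 1). The count was 2 among ubiquitin editors with the highest listed transcript, 1 to 2 among IAP proteins over left-out libraries, 1 each among Toll-like and TNF receptors after rescaling, and 4 among target genes with the other pseudocount and after rescaling. Of 246 alternative values for 19 other named genes, 232 kept their side of the threshold, 11 lost it and 3 gained it.

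Same-numbered replicates did not deviate together (r of -0.0353, -0.0916 and -0.0509), so the numbers were not taken as pairs. With the replicate block 309 genes were called higher and 343 lower, RELB had an FDR of 0.0056, and no member changed its side. The unknown number of reads per gene limits what can be said of the Toll-like receptors, since values at 0 to 0.14 TPM may rest on very few.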
